A study of Mus musculus with 2 samples.

Results

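The embryonic and adult globin genes of the mouse and 3 transcription factors that act on them were followed in RNA of the embryonic hindbrain. The 10 genes were chosen by name from the 55536 genes of the GENCODE M21 annotation: Hbb-y and Hbb-bh1 (embryonic beta-like), Hbb-bs and Hbb-bt (adult beta-like), Hba-x (embryonic alpha-like), Hba-a1 and Hba-a2 (adult alpha-like), and the regulators Klf1, Gata1 and Bcl11a. The samples formed 1 group of 2 polyA RNA-seq libraries from whole hindbrain of B6NCrl embryos of both sexes at embryonic day 12.5, with no genetic change or treatment named. Pool 1 (replicate 1) held 120 embryos and pool 2 (replicate 2) held 88 embryos, so the spread between single embryos is not seen. Each library was made from 10 ng of RNA with oligo-dT priming and tagmentation. With 1 group there was no contrast to test, and all values are given for both pools, with the mean ± SD (n = 2) describing these libraries only.

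Hemoglobin is a tetramer of alpha-like and beta-like chains that carries oxygen in red cells. In the mouse embryo the first red cells arise in the yolk sac, circulate with their nuclei, and change the globin chains they make while in the blood. Red cells made later in the fetal liver carry almost wholly adult chains. Neural tissue is not a site of red cell formation, but blood within its vessels is taken along in a dissection.

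The coding sequences show which of these genes a short read can tell apart, so their first 90 bases, read from the ATG, are given with capitals where a base differs from the adult gene of the same locus (Hbb-bs for the beta-like genes, Hba-a2 for Hba-x).
Hbb-y: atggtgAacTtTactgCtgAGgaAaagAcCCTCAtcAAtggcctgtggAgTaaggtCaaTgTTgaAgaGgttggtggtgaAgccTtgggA
Hbb-bh1: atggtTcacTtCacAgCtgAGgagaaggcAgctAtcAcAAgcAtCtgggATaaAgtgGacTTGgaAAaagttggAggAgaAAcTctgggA
Hbb-bs: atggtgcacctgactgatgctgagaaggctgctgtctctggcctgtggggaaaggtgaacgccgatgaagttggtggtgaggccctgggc
Hba-x: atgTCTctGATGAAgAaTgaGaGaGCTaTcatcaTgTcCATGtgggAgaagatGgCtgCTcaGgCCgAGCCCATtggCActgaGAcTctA
Hba-a2: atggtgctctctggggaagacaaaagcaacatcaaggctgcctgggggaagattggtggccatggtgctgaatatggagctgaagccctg
In these bases Hbb-y differed from Hbb-bs at 26 positions, Hbb-bh1 from Hbb-bs at 29, and Hba-x from Hba-a2 at 44. Hbb-bt had 0 differences from Hbb-bs there. Over the whole coding sequence, 444 bases in each beta-like gene, Hbb-y was 74.3% identical to Hbb-bs and 76.4% identical to the other embryonic gene, Hbb-bh1. Over the 429 coding bases of each alpha-like gene, Hba-x was 62.0% identical to Hba-a1 and 61.8% identical to Hba-a2. The adult genes of a locus formed near copies, with 99.8% identity in each pair. Counted from the A of the ATG, Hbb-bs and Hbb-bt differed at 1 coding base, C417T, and Hba-a1 and Hba-a2 at 1, C381T, shown in capitals within bases 361 to 401.
Hba-a1: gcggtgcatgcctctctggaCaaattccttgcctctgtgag
Hba-a2: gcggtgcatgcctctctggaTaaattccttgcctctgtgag

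Windows of 100 bases, the span that the deposited effective lengths imply for a fragment, were then searched against all M21 transcripts. Of the windows of the coding transcripts, 56.5% in Hba-a1-201 and 74.5% in Hba-a2-201 also lay in the other adult alpha-like gene. In the adult beta-like pair the shares were 62.6% for Hbb-bs-201 and 54.8% for Hbb-bt-201. Hbb-y, Hbb-bh1, Hba-x, Klf1 and Gata1 shared 0 windows with any other gene. The embryonic genes are therefore counted from their own reads, while the division of reads within each adult pair is an estimate, and the sum of each pair is used wherever possible.

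Hbb-y, the embryonic epsilon-like gene that lies first in the beta-like locus (ENSMUSG00000052187.4, mm10 chr7:103851749-103853216, minus strand), was the most abundant of the 10 genes. It had 8139 TPM (a level corrected for length and library size) in pool 1 and 6357 TPM in pool 2, on 86818 and 62500 counts, with a mean of 7248 ± 1260 TPM. By mean TPM it was number 5 of all 55536 genes. Hbb-bh1, the other embryonic beta-like gene (ENSMUSG00000052217.6, chr7:103841637-103843164, minus strand), had 613 TPM in pool 1 and 471 TPM in pool 2 (542 ± 101 TPM), on 6297 and 4458 counts. Hbb-y was 13.3-fold above Hbb-bh1 in pool 1 and 13.5-fold above it in pool 2, so the pools barely differed in this ratio. In bulk RNA of this kind, fewer cells of a type and less RNA per cell cannot be told apart.

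On M21 the adult beta-like genes lay close to Hbb-bh1 in level. Hbb-bs (ENSMUSG00000052305.6, chr7:103826534-103828096, minus strand) had 598 TPM in pool 1 and 470.5 TPM in pool 2 (534 ± 89.9 TPM). Hbb-bt (ENSMUSG00000073940.3, chr7:103812524-103813996, minus strand) had 728 and 613 TPM in pools 1 and 2 (671 ± 81.3 TPM). Their deposited counts, 6110.76 and 4521.6 for Hbb-bs and 8784.24 and 6818.4 for Hbb-bt, carried deposited posterior SDs of 91.87 and 77.37, the same for both genes. Hbb-bh1 and Hbb-bs differed by 1.02-fold in their means, and the ranges of Hbb-bt and Hbb-bh1, and of Hbb-bh1 and Hbb-bs, overlapped between the pools. Within each pool Hbb-bt was above Hbb-bh1, by 1.19-fold in pool 1 and 1.30-fold in pool 2. On the older M4 annotation Hbb-bh1 had 645 and 495 TPM in pools 1 and 2, and Hbb-bs 443 and 356 TPM.

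On the alpha-like side the adult genes led. Hba-a2 (ENSMUSG00000069917.7, mm10 chr11:32296489-32297298, plus strand) had 6043 TPM in pool 1 and 4958 TPM in pool 2 (5501 ± 768 TPM) and ranked number 8 of all genes. Hba-a1 (ENSMUSG00000069919.7, chr11:32283511-32284465, plus strand) had 2879 and 2289.65 TPM (2585 ± 417 TPM). Hba-x, the embryonic zeta-like gene (ENSMUSG00000055609.8, chr11:32276400-32278116, plus strand), had 1605 TPM in pool 1 and 1228 TPM in pool 2 (1417 ± 267 TPM), on 21003 and 14749 counts. Hba-a2, Hba-a1 and Hba-x followed each other with no overlap between their ranges over the pools. The order of Hba-a1 and Hba-x turned round on coding transcripts alone, where Hba-a1-201 had 839 and 721 TPM, below Hba-x in both pools. Hba-x stood at 0.183 times the sum of the embryonic beta-like genes in pool 1 and 0.180 times in pool 2, while the adult alpha-like sum was 6.73 and 6.69 times the adult beta-like sum.

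**Figure D1:**
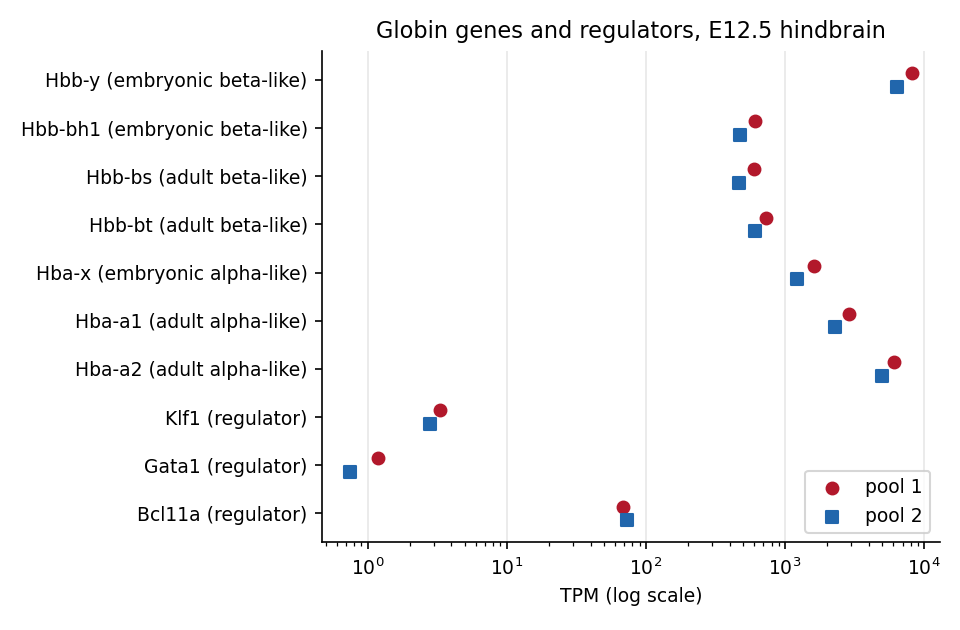
Level of each of the 10 genes in TPM (horizontal axis, log scale) in pool 1 (circles) and pool 2 (squares), with genes in rows by role. All 7 globin genes lie at or above 470.5 TPM in both pools and are higher in pool 1, Bcl11a lies near 70.9 TPM, and Klf1 and Gata1 lie at 3.29 TPM or below.

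Most beta-like globin RNA was embryonic and most alpha-like globin RNA was adult. Hbb-y and Hbb-bh1 together made up 86.8% of beta-like TPM in pool 1 and 86.3% in pool 2 (86.6% ± 0.384). Hba-x made up 15.2% of alpha-like TPM in pool 1 and 14.5% in pool 2 (14.9% ± 0.539). Expressed as ratios, embryonic beta-like RNA was 6.60 and 6.30 times adult beta-like RNA, and embryonic alpha-like RNA was 0.180 and 0.169 times adult alpha-like RNA. Across all 7 globin genes the embryonic genes held 50.3% of TPM in pool 1 and 49.2% in pool 2 (49.7% ± 0.782).

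The same shares were also taken in counts, which are not corrected for transcript length. The effective lengths were 655 and 652 bases for Hba-x in pools 1 and 2, against 455 bases in both pools for Hba-a2, so counts weight Hba-x more than TPM does. The embryonic beta-like share was 86.2% in pool 1 (93115 of 108010 counts, exact 95% binomial interval 86.0 to 86.4%) and 85.5% in pool 2 (66958 of 78298, 85.3 to 85.8%). For Hba-x the share was 20.6% in pool 1 (21003 of 102085, 20.3 to 20.8%) and 19.5% in pool 2 (14749 of 75658, 19.2 to 19.8%). Neither pair of intervals overlapped between the pools, with the embryonic share higher in pool 1 at both loci. These intervals cover only the counting of reads within each library. No molecular identifiers are mentioned for these libraries, so reads copied from the same molecule cannot be told apart. Both shares moved by more than the SD between pools when counts replaced TPM, to a mean of 85.9% beta-like and 20.0% alpha-like. Over TPM, counts, the older M4 annotation and coding transcripts alone, the beta-like share lay between 85.5% and 87.2% in each pool, and the alpha-like share between 14.5% and 20.6%.

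The alpha-like sum was 10528 TPM in pool 1 and 8475 TPM in pool 2, and the beta-like sum was 10078 and 7911 TPM. Their ratio was 1.04 in pool 1 and 1.07 in pool 2 (1.06 ± 0.0188). In counts the ratio was 0.945 and 0.966, and with coding transcripts alone its mean was 0.860, so which sum was higher depended on the measure.

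**Figure D2:**
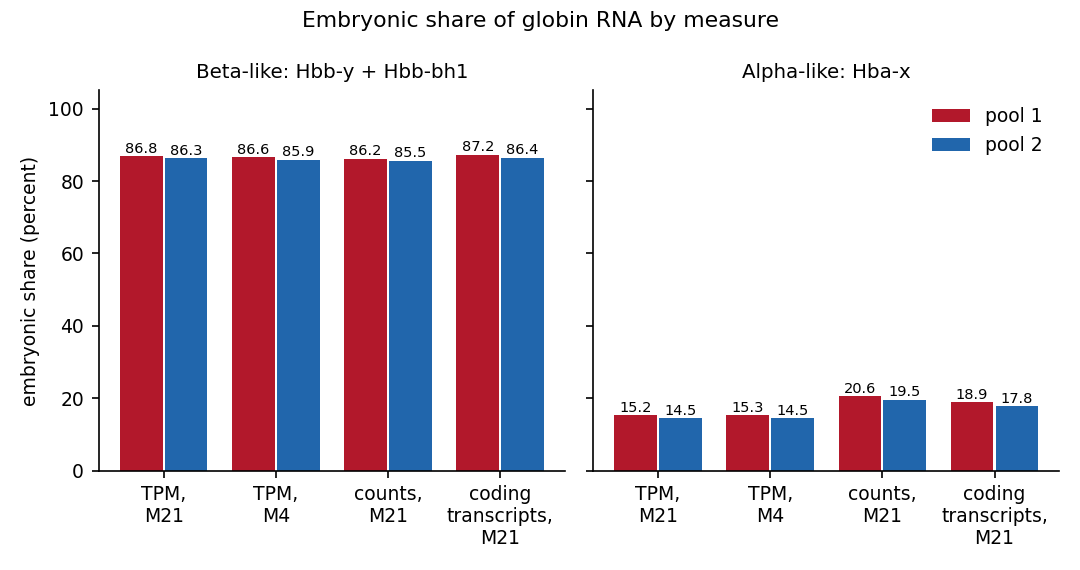
Embryonic share of beta-like (left) and alpha-like (right) globin RNA, in percent, for pool 1 and pool 2 by measure: TPM on M21, TPM on M4, expected counts on M21, and TPM of coding transcripts on M21. The beta-like bars all stand between 85.5% and 87.2%, and the alpha-like bars run between 14.5% and 20.6%.

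The measures differ in the transcript entries and lengths they rest on, and at the alpha-like locus 1 entry held much of the TPM. In Hba-a1 the entry Hba-a1-202, a retained intron form of 494 bases, held 70.9% of the gene's TPM in pool 1 and 68.5% in pool 2, and the coding form Hba-a1-201 of 699 bases held 29.1% and 31.5%. Hba-a2 was the reverse: its coding form of 554 bases held 100% of TPM in both pools and its retained intron form was at 0. The retained intron entry of Hba-a1 shared 75.7% of its windows with Hba-a2. Without retained intron forms, Hba-x made up 18.9% of alpha-like TPM in pool 1 and 17.8% in pool 2, and Hba-a2 made up 87.8% and 87.3% of the adult alpha-like sum, against 67.7% and 68.4% with all forms.

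Hba-x itself was split between coding forms, with 78.8% and 77.7% of its TPM on Hba-x-201 and 21.2% and 22.3% on Hba-x-202. Hbb-y and Hbb-bh1 have 1 annotated form each. Hbb-bs was assigned to its coding form Hbb-bs-201 for 94.0% of TPM in pool 1 and 97.5% in pool 2 on M21. On M4 that form held 29.2% and 30.7%, and the retained intron form Hbb-bs-202 held 70.8% and 69.3%. Between annotations, Hbb-bs was 1.41 times higher on M21 than on M4 relative to the median gene, and it was the 1 of 9 members with 50 or more mean counts to pass 1.25-fold. Over all genes 12.9% passed that limit. Hbb-bt, the gene that shares its reads, was at 0.833 on the same scale. On M21 Hbb-bt made up 54.9% and 56.6% of the adult beta-like sum, and on M4 it made up 67.6% and 68.3%, so the order of Hbb-bs and Hbb-bt held on both annotations while its size did not.

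**Figure D3:**
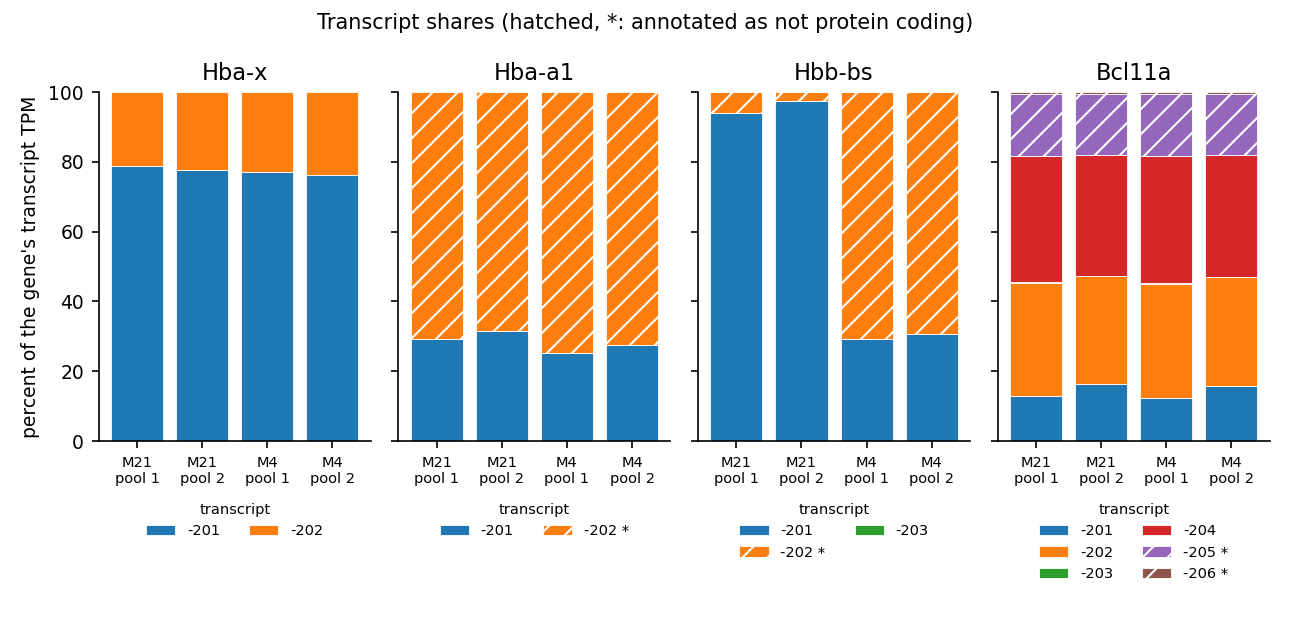
Share of each gene's transcript TPM (vertical axis, percent) by transcript for Hba-x, Hba-a1, Hbb-bs and Bcl11a, in both pools on M21 and on M4; hatched bars are forms not annotated as protein coding. The retained intron form holds most of Hba-a1 in all 4 bars, but in Hbb-bs it is 6.03% and 2.49% on M21 against 70.8% and 69.3% on M4.

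Along the chromosome, the embryonic genes of each locus lie before the adult ones. Measured from the start of Hbb-y, Hbb-bh1 began at 10.1 kb, Hbb-bs at 25.1 kb and Hbb-bt at 39.2 kb. Other rows of the beta-like locus were near the floor: Hbb-bh2 had 1 count in each pool (0.11 and 0.12 TPM), and the pseudogene Hbb-bh3 had 0 in both, which allows up to 0.899 and 0.976 TPM at 3 counts. The pseudogene Hbb-bh0 was listed at 10.0 and 12.7 TPM on only 6 and 7 counts, since its annotated length is short. At the alpha-like locus Hba-a1 began 7.11 kb and Hba-a2 20.1 kb from the start of Hba-x. The theta-like genes there were low, Hbq1b at 3.59 and 3.95 TPM and Hbq1a at 0.56 and 0.16 TPM.

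**Figure D4:**
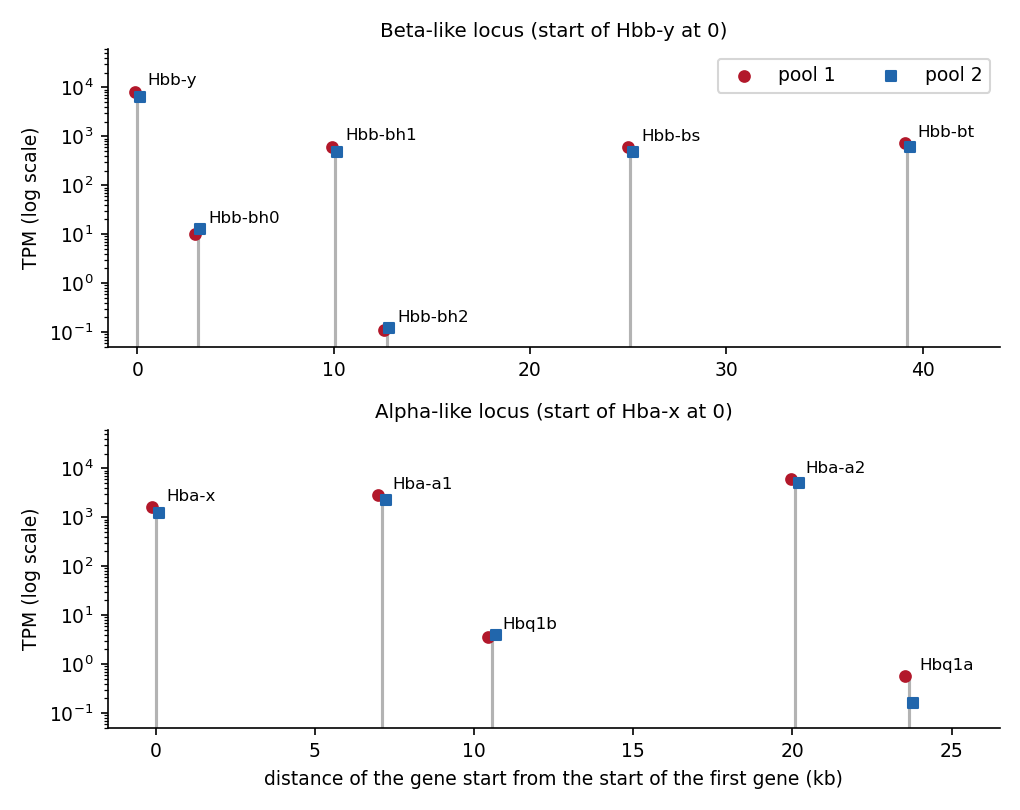
Level in TPM (vertical axis, log scale) of each globin gene against the distance of its start from that of the first gene of the locus (horizontal axis, kb), for the beta-like locus (top) and the alpha-like locus (bottom), pool 1 as circles and pool 2 as squares. Hbb-bh3, at 0 in both pools, is not drawn. The highest gene is the first in the beta-like locus and Hba-a2, at 20.1 kb, in the alpha-like locus.

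Of the regulators, Bcl11a was far above the erythroid factors. Klf1 (ENSMUSG00000054191.8, chr8:84901928-84905291, plus strand), the zinc finger activator of adult beta-globin that binds CACCC elements, had 3.29 TPM in pool 1 and 2.81 TPM in pool 2 (3.05 ± 0.339 TPM), on 94 and 74 counts. Gata1 (ENSMUSG00000031162.14, chrX:7959260-7978071, minus strand), the master factor of red cell differentiation, had 1.19 and 0.75 TPM (0.970 ± 0.311 TPM), on 32 and 25 counts. The Gata1 levels differed more than its counts, since 5.03 counts of pool 1 were assigned to the short form Gata1-202, and the full-length form Gata1-201 was at 0.75 TPM in both pools. Klf1 was 2.76 and 3.75 times Gata1 in level, with ranges that did not overlap.

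Bcl11a (ENSMUSG00000000861.15, chr11:24078056-24174123, plus strand), the repressor of embryonic globin genes in later red cells and a factor also known from neurons, had 69.0 TPM in pool 1 and 72.7 TPM in pool 2 (70.9 ± 2.64 TPM), on 5268.09 and 5105.95 counts. It was 20.97 and 25.88 times Klf1 in level. Its TPM was spread over Bcl11a-204 (36.1% and 34.7%), Bcl11a-202 (32.2% and 30.9%), the retained intron form Bcl11a-205 (17.7% and 17.6%) and Bcl11a-201 (13.00% and 16.25%). The antisense gene 4930538E20Rik overlaps Bcl11a and had 1.33 and 1.00 TPM, on 11.91 and 8.05 counts. No source used here says whether reads were counted by strand, so reads of the overlap cannot be told apart. Of the 10 genes, 9 reached 1 TPM in both pools, all but Gata1. Among all genes the share was 29.0%, and among protein-coding genes it was 61.8%.

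Promoters of the members were searched for motif letters. The bases before the RefSeq start that also lie before the GENCODE gene are shown for Hbb-y, Hbb-bt and Hba-a2. Capitals mark motifs matched in full within these bases, on either strand. They are given on GRCm38.p6, 5′ to 3′ on the gene's strand. The windows are chr7:103853217-103853327 (minus strand), chr7:103813997-103814043 (minus strand) and chr11:32296372-32296488 (plus strand).
Hbb-y: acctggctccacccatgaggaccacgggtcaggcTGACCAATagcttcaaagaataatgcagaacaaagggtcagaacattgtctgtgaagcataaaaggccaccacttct
Hbb-bt: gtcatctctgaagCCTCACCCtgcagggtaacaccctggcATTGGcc
Hba-a2: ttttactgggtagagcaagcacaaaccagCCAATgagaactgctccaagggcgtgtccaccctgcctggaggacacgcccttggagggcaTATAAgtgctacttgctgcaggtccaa
RefSeq promoters were found for 9 of the 10 genes, all but Hbb-bh1, and both strands of the 250 bases before the start were searched. The letters TGACCA, which human BCL11A binds at fetal globin promoters, were matched in Hbb-y, where they overlap the letters of the CCAAT box, and in Hba-x. They occur in 11.4% of the 32851 RefSeq promoters. The letters CCNCNCCC, the motif searched for KLF1, were matched in Hbb-bs, Hbb-bt, Hba-x, Gata1 and Bcl11a and occur in 45.9% of promoters. The shorter CACCC was not searched as a motif, and the printed windows of Hbb-y and Hba-a2 hold it in lower case. The GATA1 motif, spelled AGATAA, was matched in Hbb-bs and occurs in 9.99% of promoters. The spelling TGATAA was not searched, and the bases before the Klf1 start hold it on the opposite strand. CCAAT was matched in Hbb-y, Hbb-bs, Hbb-bt, Hba-a1, Hba-a2, Klf1 and Bcl11a (33.9% of promoters), and TATAA, the TATA box, in Hbb-bs, Hbb-bt, Hba-x, Hba-a1 and Hba-a2 (22.8%). In the printed Hbb-bt window the capitals ATTGG are CCAAT on the opposite strand. A same-strand CCAAT of Hbb-bt runs past the end of that window, and its same-strand TATAA lies beyond it. These matches are letters in a window and were not tested for binding.

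Between the pools, every globin gene was higher in pool 1, by similar amounts. After TMM scaling of counts, the log2 ratio of pool 1 over pool 2 was 0.37 for Hbb-y, 0.39 for Hbb-bh1 and 0.40 for Hba-x, each above every adult gene. For the adult genes it was 0.33 for Hbb-bs, 0.26 for Hbb-bt, 0.33 for Hba-a1 and 0.30 for Hba-a2. The counting standard errors were between 0.00757 and 0.0283. All 7 globin genes had a ratio above 0, where 49.4% of the 14995 genes with 50 or more mean counts did. A ratio at or above the lowest of the 7 was found in 8.28% of those genes. In sum the globins held 0.668% of gene counts in pool 1 and 0.526% in pool 2, a log2 ratio of 0.34, or 1.27-fold.

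Among the regulators, Bcl11a lay below the globins, while Klf1 and Gata1 had errors too wide to set them apart from the globins. Klf1 had a log2 ratio of 0.24 (counting SE 0.224) and Gata1 of 0.25 (0.385), each with few counts. Bcl11a was at -0.06 (0.0283), and it was the 1 gene of the 10 lower in pool 1. None of the 9 members with 50 or more mean counts passed 2-fold between the pools, against 1.00% of all genes at that level. Scaling by the ERCC spike-in RNAs, which held 3.31% of counts in pool 1 and 4.25% in pool 2, raised the median log2 ratio of all genes by 0.37. Under it Hbb-y was at 0.74 and Bcl11a at 0.31, a positive value where TMM scaling gave a negative one.

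**Figure D5:**
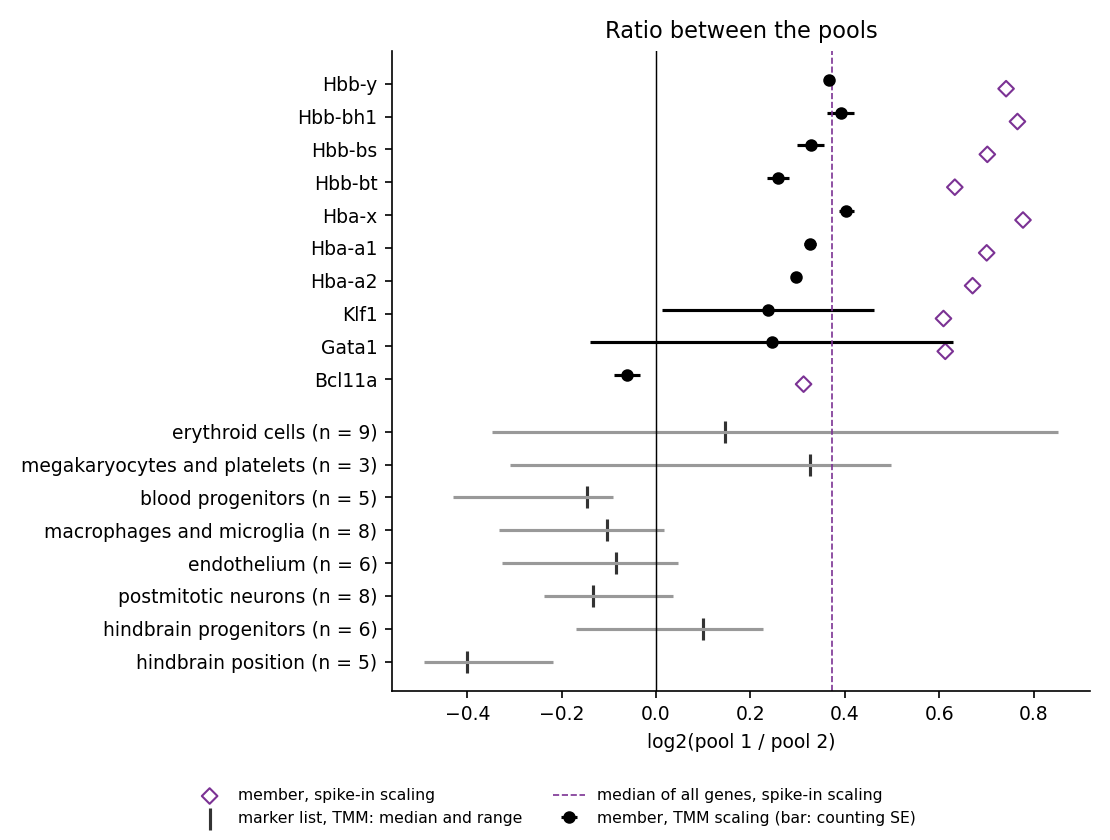
Log2 ratio of pool 1 over pool 2 (horizontal axis) for the 10 genes, with TMM scaling (filled points, bars of 1 counting standard error) and spike-in scaling (open diamonds), and below them the median and range of cell type marker lists under TMM scaling (n is the number of genes with 50 or more mean counts). The globins lie between 0.26 and 0.40 with TMM scaling, and Bcl11a at -0.06.

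The wider red cell program was measured with 7 gene lists, in which 83 of 93 distinct genes reached 1 TPM in both pools, where 61.8% of protein-coding genes did. Of the 80 with 50 or more mean counts, 50 had a ratio above 0 and none passed 2-fold; their median log2 ratio was 0.06, against 0.33 for the 7 globins and -0.00 for all genes tested. All 13 genes of heme synthesis and iron supply reached 1 TPM, with a median of 38.5 TPM. Alas2, the red cell form of the first heme enzyme, had 39.3 TPM in pool 1 and 34.5 TPM in pool 2. Alas1, its form in other tissues, had 61.3 and 70.7 TPM. Among the other heme enzymes Urod had 67.8 and 69.2 TPM, Alad 49.8 and 45.1 TPM, and Ppox 47.1 and 46.4 TPM.

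Erythroid transcription factors were mostly low, with a median of 4.04 TPM over 15 genes. Of these, 13 reached 1 TPM in both pools, where 61.8% of protein-coding genes did. The highest were widely expressed partners: Tcf3, the E-protein partner of Tal1, had 138 and 135 TPM, and the bridging factor Ldb1 had 107 and 99.2 TPM. Klf3, a repressor related to Klf1, had 34.5 and 38.9 TPM. Gata2, which precedes Gata1 in blood progenitors and is also a factor of hindbrain neurons, had 33.8 and 22.6 TPM, far above Gata1. Zfpm1, the Gata1 cofactor FOG1, had 2.54 and 1.90 TPM and the largest ratio of the list, 0.43 on the log2 scale.

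All 25 genes of the globin switching list, which holds Bcl11a and the chromatin proteins that act with it, reached 1 TPM in both pools. Among protein-coding genes 61.8% did. The list had a median of 55.7 TPM and a median log2 ratio of 0.06. The deacetylases Hdac2 and Hdac1 had 341 and 354 TPM, and 138 and 129 TPM, in pools 1 and 2. Mbd3 and Mta2, subunits of the NuRD complex that works with Bcl11a, had 229 and 211 TPM, and 135 and 142 TPM. Myb, a factor of blood progenitors, was low at 3.54 and 4.09 TPM. Many of these proteins serve dividing cells of all kinds.

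Genes of the red cell membrane list, and most of the erythropoietin and Kit list, were also present. In the membrane list, of median 5.28 TPM, all 16 genes reached 1 TPM in both pools, where 61.8% of protein-coding genes did. Slc4a1, the band 3 anion exchanger, had 25.97 and 23.62 TPM, while Epb41 (153 and 161 TPM), Add2 (88.8 and 91.5 TPM) and Dmtn (26.81 and 26.02 TPM) code for skeleton proteins that neurons also use. Ermap, an erythroblast membrane protein, had the largest ratio of this list, 0.58 on the log2 scale, on 321 and 199 counts, although its TPM was 5.76 and 6.03. In the erythropoietin and Kit list 8 of 9 genes reached 1 TPM in both pools, against the same 61.8%. Bcl2l1, a survival factor, had 120.0 and 127 TPM, Kit 32.2 and 35.4 TPM, Stat5b 15.8 and 13.3 TPM, Jak2 13.5 and 13.4 TPM, and Stat5a 1.09 and 2.16 TPM. Epo, the hormone itself, was at 0.08 and 0.18 TPM, under the 0.247 and 0.268 TPM that 3 counts would give. Its receptor Epor had 3.32 TPM in both pools, on 101 and 74 counts.

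Of the enzyme list, 6 of 8 genes measured reached 1 TPM in both pools, where 61.8% of protein-coding genes did. Prdx2, a peroxidase abundant in red cells, had 919 and 835 TPM, and Gpx1, a glutathione peroxidase, had 565 and 496 TPM. Cat, catalase, had 70.9 and 82.2 TPM, Bpgm, which makes the hemoglobin ligand bisphosphoglycerate, had 63.8 and 54.1 TPM, and the carbonic anhydrase Car2 had 59.8 and 47.5 TPM. Pklr and Car1, enzymes of mature red cells, were at 0.74 and 0.19 TPM and at 0.18 and 0.19 TPM. Outside red cells, the related oxygen-binding proteins were low: cytoglobin (Cygb) had 3.50 and 4.55 TPM, myoglobin (Mb) 0.62 and 1.90 TPM, and neuroglobin (Ngb) 0.33 and 0.25 TPM.

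Markers of red cells outside the 10 genes moved with the globins. The 9 markers summed to 90.9 TPM in pool 1 and 81.9 TPM in pool 2, 8 of them were higher in pool 1 by scaled counts (49.4% of all genes were), and their log2 ratios ran between -0.35 and 0.85 with a median of 0.15. Markers of megakaryocytes and platelets summed to 76.0 and 60.3 TPM, most of it Pf4 with 58.1 and 43.1 TPM. Of the 3 genes of 50 or more mean counts, 2 were higher in pool 1 (49.4% of all genes were). The other, Itga2b, had 5.52 and 6.55 TPM and a log2 ratio of -0.31. Markers of other blood and vessel cells were lower in pool 1: blood progenitors at 75.1 and 83.8 TPM (0 of 5 higher in pool 1), macrophages and microglia at 77.7 and 84.7 TPM (1 of 8), and endothelium at 101.9 and 109.5 TPM (1 of 6). Most of the blood progenitor sum was Cd34 (34.6 and 38.3 TPM) and Kit (32.2 and 35.4 TPM), while Myb had 3.54 and 4.09 TPM. Of the liver and yolk sac list, 2 of 6 genes reached 1 TPM in both pools, where 61.8% of protein-coding genes did. Apoa1 had 1.33 and 1.39 TPM, on 24 counts in each pool, and Afp 0.32 and 0.14 TPM. Alb and Serpina1a were at 0 in both pools. The sum of that list, 318 and 377 TPM, was nearly all Ttr, a gene that the choroid plexus also expresses. What part these cells have in the difference between the pools was not tested.

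The libraries themselves were of like depth, and markers of neurons, progenitors and hindbrain position were also measured in them. Gene counts were 31469575 in pool 1 and 29261472 in pool 2, and 16892 and 16842 genes reached 1 TPM. Postmitotic neuron markers summed to 1958 and 2036 TPM and neural progenitor markers to 2461 and 2256 TPM, with all 8 and all 6 of their genes at 1 TPM or more. Of the 6 genes of hindbrain position, 4 reached 1 TPM in both pools, near the 61.8% of protein-coding genes that did. The highest were Hoxb2 (45.1 and 56.7 TPM), Hoxa2 (40.4 and 53.8 TPM) and Gbx2 (35.7 and 48.8 TPM). En2 (0.51 and 0.66 TPM) and Egr2 (0.88 and 1.17 TPM) did not reach 1 TPM in both pools. Between the pools, the position list had a median log2 ratio of -0.40, with 0 of 5 genes of 50 or more mean counts higher in pool 1, where 49.4% of all genes were. The progenitor list had 4 of 6 genes higher in pool 1 and a median of 0.10, and the neuron list 2 of 8 and a median of -0.13. The part of these lists in the globin difference was not tested.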

How the data were processed

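PolyA RNA-seq of 2 hindbrain pools was deposited as gene and transcript tables against GENCODE M21 and against M4 (build mm10, from the read-me files). Which program produced them was not given in the sources used here. Expected counts, as deposited, estimate reads and carry no depth scaling. The TPM values made by the authors are corrected for length and sum to a fixed total, spike-ins included. The deposited FPKM values were used as an alternative. The deposited isoform percent columns were replaced by shares from transcript TPM.

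The M21 gene table was the main one. Rounded expected counts of the 18575 genes that passed the low-count filter of edgeR 4.0.16 entered its TMM scaling. Log2 ratios had a prior count of 0.5, and ratios were tallied over genes with 50 or more mean counts. Spike-ins, library totals or size factors (DESeq2 1.42.0) were alternatives. The scaling steps were tested on simulated data. No count test was run, since 1 group has no contrast. Intervals are exact binomial. Tables and intervals came from Python 3.11.15 with scipy 1.17.1, numpy 2.4.6 and pandas 2.3.3, figures from matplotlib 3.10.9, and scaling ran in R 4.3.3. Promoters are from RefSeq (GRCm38.p6), coding sequences from GENCODE M21 transcripts.

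The members and lists were chosen with earlier results of these data known. The named genes are all members, the 4 of highest mean TPM of each pathway list, up to 3 under 1 TPM in both pools, the 1 of largest ratio between the pools, and the 3 of highest mean TPM of each marker list. Not every gene so chosen is described. Hbq1a, Epor, Alb, Serpina1a, En2 and Egr2 were named outside this rule, after their values were seen. Ahsp, of the enzyme list, had no row.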

Additional observations from a re-analysis of the deposited data

How the results depend on the processing

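No paired analysis was possible because the series holds 1 group, so there is no contrast across which the replicate numbers could pair. Leaving out each replicate gave beta-like embryonic shares of 86.3 to 86.8%, alpha-like shares of 14.5 to 15.2%, alpha-like to beta-like ratios of 1.04 to 1.07, median leading isoform shares of 97.0 to 100% and median levels of the 10 genes of 542 to 671 TPM. In counts in place of TPM the embryonic share was 85.9% beta-like and 20.0% alpha-like, and the ratio 0.956. With coding transcripts alone the alpha-like share was 18.3% and the ratio 0.860. On M4 the ratio was 1.11, the median leading isoform share 90.9% against 97.9% on M21, and the median level 708 TPM against 606 TPM on M21. Spike-in scaling gave a median log2 ratio between the pools of 0.69 against 0.31 with TMM, and 250 genes past 2-fold; a minimum of 10 mean counts gave 785, against 150 with TMM and 50 mean counts. Coding transcripts alone leave out the entry Hba-a1-202 by construction; the cause of the other differences was not tested. Reads shared within each adult pair limit the single-gene values, and low counts limit Klf1 and Gata1.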
